A study of Mus musculus with 40 samples.

Results

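H3K27ac, the acetylation of lysine 27 on histone H3, was compared between cold and warm wild type C57BL/6N mice on chow. The tissue was brown fat, labelled iBAT, of mice aged 20 weeks, and the mark was profiled by chromatin immunoprecipitation with sequencing. Mice 1 and 2 were warm and were kept at room temperature on a normal chow diet (NCD). Mice 4 and 5 received the same diet and were kept at 4 °C for 24 h. The mark was also read in warm mice 7 and 8 and in cold mice 10 and 11, which ate a high-fat diet (HFD) from the age of 8 weeks on, for 12 weeks. Each mouse gave 1 list of peaks, called against its own input. The 4 NCD lists held 106361 peaks, and peaks that overlapped by 1 bp or more were merged into 38373 regions. A separate merge of the lists of all 8 mice gave 47548. A region was called cold-only when both cold lists and neither warm list held a peak there, and warm-only in the reverse case. By this rule 2669 regions were cold-only, 67 were warm-only, 10514 were in all 4 lists and 25123 had another pattern.

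H3K27ac marks active promoters and active enhancers, the stretches of DNA at or far from a gene's start that raise its transcription. In brown fat, cold acts through noradrenaline and the β3-adrenergic receptor, whose cAMP signal drives lipolysis and the transcription of thermogenic genes. The product of Ucp1, uncoupling protein 1, lets mitochondria release the energy of fatty acids as heat. Tissue was taken as a whole, so a change in the cells that make it up and a change of the mark within a cell cannot be told apart.

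The cold lists had the higher implied background coverage, which stands in for depth here. The fold of a peak is its ChIP coverage over local background, both raised by 1, and the background coverage that fold and p together imply was 0.654 and 0.816 reads per base in mice 1 and 2 and 1.07 and 0.964 in mice 4 and 5, so depth and temperature cannot be told apart. These values reproduced 45.3% to 69.8% of the peaks sampled from the NCD lists, and depth itself was not measured. Mouse 1 had 16889 peaks and the other NCD mice 28433 to 30544. Mouse 4 stood apart in its peak heights: across the 10514 regions in all 4 lists its folds had a Spearman rho of 0.165 to 0.265 with those of the other NCD mice, which had 0.657 to 0.698 among themselves. Over the 7042 of these regions with peaks in HFD mice 8, 10 and 11, the folds of mouse 4 had a rho of 0.513 with cold HFD mouse 10, above its values with the other NCD mice, and of 0.242 and 0.278 with mice 8 and 11. Mice 1, 2 and 5 had 0.369 to 0.543 with these HFD mice. The labels were kept as given. These correlations are across regions of the same genome, which are not independent. Mouse 4 also had the largest group of regions held by a single list, 6721, against 2749 for mouse 5, 3869 for mouse 2 and 34 for mouse 1. As a check of the tissue label, all 4 lists had peaks within 1 kb of the start of all 7 general adipocyte markers and of 6 of 7 brown adipocyte markers. The 5 lymphocyte, 4 hepatocyte and 4 neuron markers had none, nor had 8 of 10 skeletal muscle markers, Myod1 and Ckm among them. Of 5 fibroblast markers, 3 had a start peak in mouse 2 (summed fold 17.9) and none in the other NCD mice. Of 7 macrophage markers, mice 1, 2, 4 and 5 had 0, 1, 2 and 1 with a start peak, and Adgre1 and Csf1r had none.

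The reference sequence under the summits is given for regions with the highest ranks in each class and for Gdf15, because cold-only and warm-only regions differed in base composition as well as in position. Each line holds a window of GRCm38 centred on the summit, on the plus strand from 5′ to 3′, and capitals mark CpG, the dinucleotide that is dense at many promoters. The first 3 regions were cold-only and are named by the gene with the nearest start site.
1700027A15Rik, chr1:73109697-73109897: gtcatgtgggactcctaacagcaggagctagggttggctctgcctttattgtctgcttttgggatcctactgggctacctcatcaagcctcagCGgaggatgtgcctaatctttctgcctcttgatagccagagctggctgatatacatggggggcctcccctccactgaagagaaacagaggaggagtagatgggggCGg
Fam20c, chr5:138746278-138746478: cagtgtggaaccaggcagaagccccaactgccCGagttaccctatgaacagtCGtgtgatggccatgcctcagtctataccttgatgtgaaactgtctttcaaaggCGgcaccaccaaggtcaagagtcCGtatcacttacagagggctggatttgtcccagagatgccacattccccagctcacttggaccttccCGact
Gm35715, chr9:110672944-110673144: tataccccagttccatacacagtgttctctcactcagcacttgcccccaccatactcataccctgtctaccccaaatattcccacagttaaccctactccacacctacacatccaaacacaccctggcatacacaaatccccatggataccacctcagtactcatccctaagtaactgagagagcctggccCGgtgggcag
The next 3 were warm-only. They had ranks 1, 3 and 5, since the windows of Srsf7 and Surf4 touch an untranslated region and are not printed.
Pisd-ps1, chr11:3127154-3127354: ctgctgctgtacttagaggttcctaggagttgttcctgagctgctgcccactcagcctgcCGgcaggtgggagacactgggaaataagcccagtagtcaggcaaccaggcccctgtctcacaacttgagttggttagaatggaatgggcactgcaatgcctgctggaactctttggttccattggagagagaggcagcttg
Snhg6, chr1:9943869-9944069: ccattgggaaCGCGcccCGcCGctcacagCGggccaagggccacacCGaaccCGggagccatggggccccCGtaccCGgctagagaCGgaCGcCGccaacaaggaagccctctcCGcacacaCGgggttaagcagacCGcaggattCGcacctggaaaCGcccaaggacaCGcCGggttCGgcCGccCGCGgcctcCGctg
Brca2, chr5:150522312-150522512: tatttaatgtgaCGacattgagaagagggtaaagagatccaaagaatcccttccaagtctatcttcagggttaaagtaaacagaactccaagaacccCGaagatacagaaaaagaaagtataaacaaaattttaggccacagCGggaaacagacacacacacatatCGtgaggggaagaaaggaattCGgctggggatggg
The cold-only region in the intron of Gdf15 had rank 9.
Gdf15, chr8:70631036-70631236: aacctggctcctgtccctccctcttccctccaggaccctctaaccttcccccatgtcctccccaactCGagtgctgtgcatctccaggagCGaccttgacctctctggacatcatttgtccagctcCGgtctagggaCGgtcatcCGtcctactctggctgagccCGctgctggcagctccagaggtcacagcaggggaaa
The cold-only windows held 2, 5, 1 and, in Gdf15, 6 CpG. The warm-only window of Snhg6, at a start site, held 24, and those of Pisd-ps1 and Brca2 held 1 and 5. Over 300 bases around all summits the median number was 3 in cold-only, 14 in warm-only, 9 in shared and 5 in all regions. Median GC content was 49.7%, 57%, 54.3% and 50.7% in the same order. Among regions beyond 1 kb of a start the medians lay within 47.7% to 50.0% for the same groups, of which the warm-only group had 20 regions.

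Both cold lists and neither warm list held a peak at 6.96% of the regions, and both warm lists and neither cold list at 0.175%. The imbalance was smaller when lists of equal length were compared. With the 16889 peaks of highest −log10 p in each list, 933 of 23481 regions were cold-only (3.97%) and 449 were warm-only (1.91%). With 10000 peaks per list the counts were 572 and 408, and with 5000 they were 311 and 279. Without mouse 1, 2769 regions were cold-only and 3941 warm-only, but warm-only then needs only a peak of mouse 2. With all 4 lists, 3869 regions had a peak of mouse 2 alone, so this count cannot show the direction of the difference. Without mouse 4, when cold-only needs only a peak of mouse 5, there were 6291 and 162. Of the 2669 cold-only regions, 283 (10.6%) stayed cold-only with equal lists, as did 29 of the 67 warm-only regions (43.3%). With 2 mice in each group the lowest p an exact permutation test allows is 0.33, so no region was tested for presence.

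**Figure D1:**
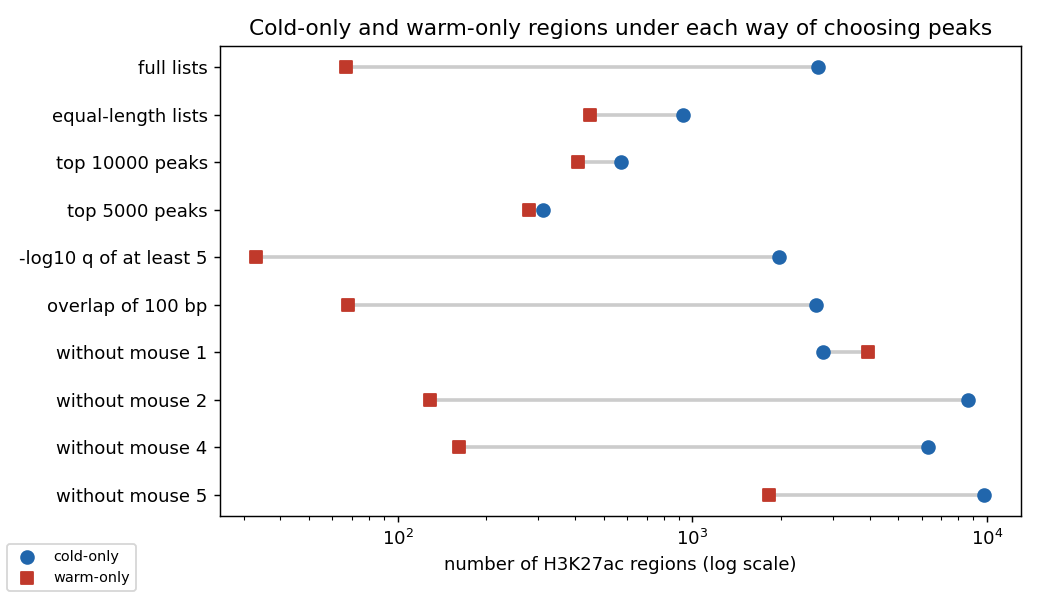
Number of cold-only (circles) and warm-only (squares) H3K27ac regions on a logarithmic axis, for each choice of peaks, overlap or mice. The full lists gave 2669 and 67 regions and equal lists 933 and 449. Leaving out mouse 1, when warm-only needs only a peak of mouse 2, put the warm-only count above the cold-only count.

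Cold-only regions lay away from genes' starts. The summit was within 1 kb of an annotated start in 10.5% of cold-only regions, 54.2% of regions in all 4 lists and 32.7% of all regions. In regions of other patterns the share was 26.0%. Regions held by a single list also lay mostly beyond 1 kb. Among those with a sequence window these were 6122 of 6715 for mouse 4, 2028 of 2748 for mouse 5 and 3035 of 3869 for warm mouse 2. The trait is thus not particular to cold-only regions. The median distance of a cold-only summit from the nearest start was 10179 bp, and 62.0% of these summits lay in introns and 30.1% between genes. With equal lists 13.4% of the cold-only regions were near a start, of 42.1% of all regions. Leaving out each NCD mouse in turn gave 9.74% to 16.9%, below the share of all regions each time. Of the warm-only regions 70.1% lay near a start, and 71.0% did with equal lists. The list of mouse 1 itself had 53.2% of its summits there against 30.1% to 40.3% in the others. Without mouse 1, 22.4% of the warm-only regions and 32.7% of all regions were near a start. Warm-only then needs only a peak of mouse 2, so this is not the same class with a mouse removed.

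**Figure D2:**
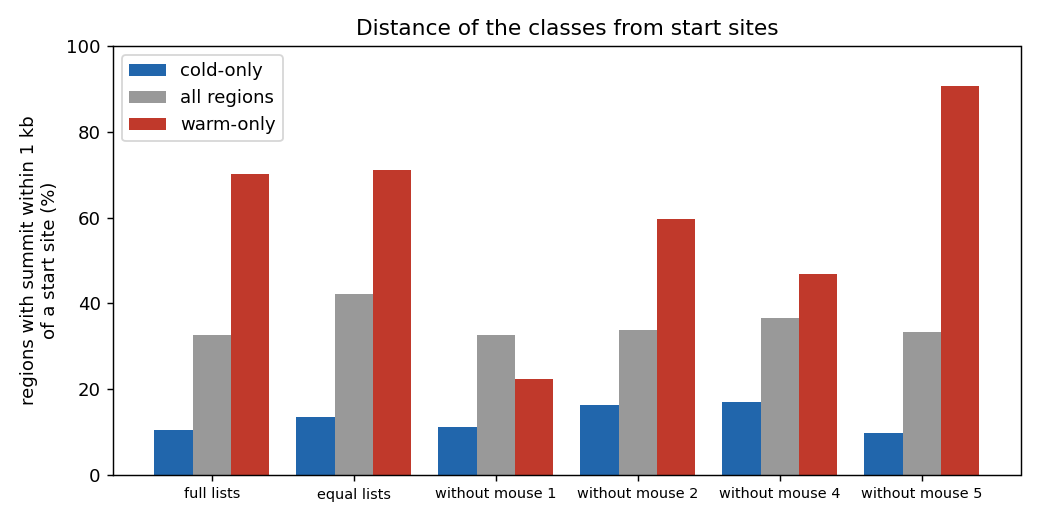
Percent of cold-only, all and warm-only regions with the summit within 1 kb of an annotated start site, for full lists, equal lists and without each mouse. Cold-only regions stayed between 9.74% and 16.9%, while warm-only regions ranged from 22.4% without mouse 1 to 90.6% without mouse 5. Without mouse 1, warm-only needs only a peak of mouse 2.

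The 12 cold-only regions with the highest rank, among those that stayed cold-only with equal lists, had folds of up to 14.5 in mouse 4 and 13.6 in mouse 5. The region in Gdf15, which encodes a stress-induced hormone that acts on appetite, spans chr8:70630963-70631569 and has its summit in an intron, 959 bp from the nearest start. Its fold was 9.0 in mouse 4 and 10.6 in mouse 5, and neither warm mouse had a peak. In the HFD mice its fold was 10.4 in mouse 10 and 9.07 in mouse 11, both cold, and mice 7 and 8 had no peak. H3K4me3, a promoter mark, was listed there in both cold mice and 1 warm mouse. At the region nearest to Gm35715, of folds 14.5 and 9.95, H3K4me3 was listed in both cold mice and neither warm mouse.

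The region upstream of Fam20c, which encodes a kinase of secreted proteins, was at chr5:138745006-138747244, 8.14 kb from the start, with folds of 9.66 and 13.6 in the cold mice. A region in an intron of Akap2, which encodes an anchor for protein kinase A, had folds of 14.1 and 8.72, and both cold mice and no warm mouse had an H3K4me1 peak over it. H3K4me1 is the mark of enhancers. A region between genes at chr15:103089269-103092101, 56.7 kb from the start of Hoxc4, had folds of 8.49 and 12.9. These 3 regions also had peaks in warm HFD mouse 8, of fold 3.81, 5.95 and 4.39. Of the 12 regions, 10 had a peak in warm HFD mouse 8, 11 in cold HFD mouse 10 and 12 in cold HFD mouse 11. Only Gdf15 and Mroh5 among them had peaks in both cold HFD mice and neither warm one. The region of rank 3, nearest to mt-Nd2, covered mitochondrial DNA, which carries no histones, at folds of 2.22 and 1.60, and all 4 HFD mice had a peak there. The other leading regions lay nearest to 1700027A15Rik, Gm35715, Gm32184, Gm29012, Gm11581, Haus8 and Mroh5.

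**Figure D3:**
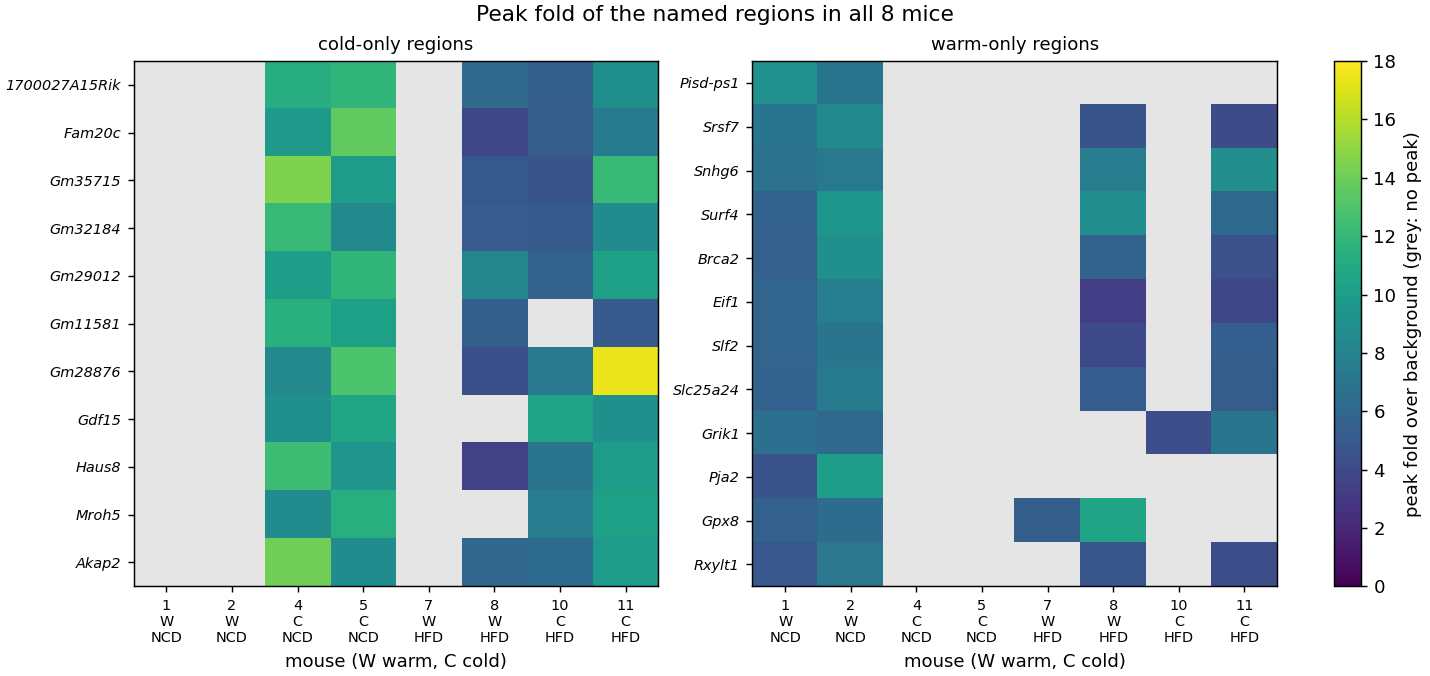
Peak fold over background of the leading cold-only regions (left, without the mitochondrial one) and warm-only regions (right) in all 8 mice. Grey marks a mouse with no peak. The Gdf15 region had a peak in each of the 4 cold mice and in no warm mouse.

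Of the 12 leading warm-only regions 9 were within 1 kb of a start. At Srsf7, which encodes a splicing factor, the folds were 7.01 in mouse 1 and 8.58 in mouse 2. At Surf4, a cargo receptor of the secretory pathway, they were 5.64 and 9.44, and at Eif1, an initiation factor of translation, 5.90 and 7.71. At Brca2, a DNA repair gene, they were 5.51 and 9.01. H3K4me3 was listed in all 4 NCD mice at 11 of the 12, with Gpx8 the exception. Peaks were present at 9 of the 12 in warm HFD mouse 8 and at 9 in cold HFD mouse 11, but at 1 each in mice 7 and 10. Snhg6, Slf2, Slc25a24, Grik1, Pja2, Rxylt1 and Pisd-ps1 complete this list. Pisd-ps1 is a pseudogene, so that its reads may be shared with related copies. Under a −log10 q of at least 5, 4 of the 12 kept their class. All 12 leading cold-only regions did, but the high −log10 p for which they were picked had fixed this in advance. With 5000 peaks per list, 0 of the 12 in each class kept it.

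The cold-only regions lay nearest to 1804 of the 11759 protein-coding genes with a region (15.3%), and 66 genes (0.561%) had a warm-only region. With equal lists the shares were 7.73% and 4.34%. A gene with more regions has more chances of a cold-only one, so that shares of regions, 6.96% cold-only over all and 3.97% with equal lists, are given beside the counts of genes in each list. Distances here are to protein-coding starts. The gene with most cold-only regions was Ppargc1b, a coactivator of mitochondrial gene expression, with 16 of its 42 regions, spread over 153 kb of chromosome 18. Their folds ran from 3.03 to 6.53 in mouse 4 and from 3.78 to 7.78 in mouse 5, and with equal lists 1 cold-only and 1 warm-only region remained nearest to this gene. Zfp36l2, an mRNA decay factor, had 9 of 35 and the adhesion gene Tns1 9 of 65. Fry had 8 of 33, and Nrp1, a receptor for vascular growth factors, had 8 of 48. Among genes with a warm-only region, Nudt4 had 2 and all others 1, for example Brca2, Bud13, Ccdc122 and Exd1.

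Of the 20 thermogenesis genes, all with a region, 7 had a cold-only region (35.0%, against 15.3% of all genes) and 4 of 19 did with equal lists (21.1%, against 7.73%). Of their regions 11.9% were cold-only, and 3.54% with equal lists, below the 3.97% of all regions. The Ucp1 region, at chr8:83295166-83295589 in an exon and 4.91 kb from the start, had folds of 6.14 and 5.90. None of the HFD mice, warm or cold, had a peak over it. This region did not stay cold-only with equal lists. In Ppargc1a, the master coactivator of mitochondrial biogenesis, an intronic region 52.2 kb from the start had folds of 7.32 and 4.03. An intronic region of Gk, the glycerol kinase gene, had folds of 6.34 and 4.73.

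Of 22 adrenergic and cAMP signalling genes, 6 had a cold-only region (27.3%) and 5 did with equal lists (22.7%). Of their 191 regions 5.76% were cold-only, and 3.94% with equal lists, at or below the shares of all regions. The region 50.3 kb from the start of Prkar2b, a regulatory subunit of protein kinase A, had folds of 8.49 and 8.72 and stayed cold-only. The region of Pde4b, a cAMP phosphodiesterase, had folds of 9.85 and 5.43. Nr4a1, an orphan nuclear receptor induced by cAMP, had the only warm-only region of this list, 165 bp from a start, with folds of 4.61 and 4.89.

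Of 18 lipolysis and lipid droplet genes with a region, 5 had a cold-only one and 3 of 17 did with equal lists, which was 8.41% and 5.45% of their regions. The region 12.6 kb from G0s2, an inhibitor of the lipase ATGL, had folds of 11.6 and 7.24 and stayed cold-only. Fatty acid oxidation genes had cold-only regions in 3 of 20 cases and glycolysis genes in 3 of 20, both 15.0% and close to the share of all genes. Of their regions 3.36% and 6.45% were cold-only. With equal lists the gene counts were 0 of 20 and 1 of 19. De novo lipogenesis had 4 of 16 (4.62% of regions) and 1 of 16 with equal lists. The full-list count was led by Elovl6, a fatty acid elongase with 3 cold-only intronic regions, none of which remained with equal lists. In the adipocyte identity list 6 of 15 genes had one, and 6 did with equal lists (40.0%, against 15.3% and 7.73% of all genes). Of their 175 regions 4.57% were cold-only, below the share of all regions, and 5.88% with equal lists. None of the regions named for it, at Rxra, Cd36, Cebpd and Zfp423, stayed cold-only. Pparg, the master regulator of adipocyte differentiation, had 2 cold-only intronic regions among 32, and neither stayed so.

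Vascular and endothelial genes had a cold-only region in 10 of 17 cases (58.8%) and in 5 of 16 with equal lists (31.2%). This was 13.3% of their regions, and 6.59% with equal lists. The region 6.79 kb from the start of Tek, an angiopoietin receptor, had folds of 6.94 and 6.72 and stayed cold-only. Regions of Kdr, the main receptor of VEGF, had folds of 6.53 and 6.03, and of Eng, a TGF-β coreceptor, 7.71 and 6.28. Vegfa itself had a warm-only region, 91.4 kb away, with folds of 6.16 and 4.24. The summed fold at the starts of 6 endothelial markers was 20.0 and 35.8 in the warm mice and 61.2 and 40.1 in the cold mice, and 4 of the 6 had a peak in all 4 lists. Its part in these counts was not tested.

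Immediate early genes, which respond within minutes to many stimuli, had a cold-only region in 9 of 18 cases (50.0%, against 15.3% of all genes) and in 4 of 18 with equal lists (22.2%, against 7.73%). Of their 212 regions 9.91% were cold-only, and 3.31% with equal lists, below the 3.97% of all regions. The leading region lay 513 kb from Myc, with folds of 11.0 and 7.07. Stress response genes had one in 4 of 18 cases (22.2%, and 7.84% of regions) and in 1 of 16 with equal lists (6.25%, against 7.73% of all genes). With full lists, 2 of the 4 were at the genes of the stress hormones Gdf15 and Fgf21. The Fgf21 region, at chr7:45614763-45615446, was 346 bp from the start, with folds of 4.58 and 8.01. It was also present in cold HFD mice 10 and 11, with folds of 4.97 and 3.56, and absent from the lists of warm HFD mice 7 and 8. It did not stay cold-only with equal lists. Clock genes had 4 of 18 (22.2%, and 3.64% of regions) and 2 of 18 with equal lists (11.1%). Heat shock genes had 1 of 13 (7.69% and 4.76%) and 0 of 13 with equal lists. Nuclear receptor genes had 2 of 13 (15.4% and 6.8%). The last list had 5 of 12 with equal lists (41.7%, and 9.09% of regions), and Thra, a thyroid hormone receptor, had a region that stayed cold-only at folds of 6.50 and 7.14. Extracellular matrix genes had 4 of 14 (28.6%, and 6.06% of regions) and 1 of 11 with equal lists (9.09%). Muscle genes had 2 of 5, with 4 of 18 regions, and leukocyte genes 1 of 4, with 1 of 6 regions, and neither had any with equal lists.

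Heights at gene starts were compared next, as the highest peak within 1 kb of a start. Of 5910 protein-coding genes with such a peak in all 4 lists, both cold mice were above both warm mice at 8.39% and below them at 8.41%. Without mouse 4, mouse 5 was above both warm mice at 51.6% and below both at 10.1%. The direction turned with the mouse left out: without mouse 5, 689 genes were above and 4147 below, and without mouse 1, 531 and 2619. After quantile normalization, which gives all lists the same spread of folds, both cold mice were above at 17.6% and below at 17.6%.

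At Ucp1 the fold was 15.7 and 10.8 in the warm mice and 33.5 and 26.3 in the cold mice. At Dio2, which makes active thyroid hormone, it was 5.77 and 6.90 in the warm mice and 11.4 and 8.95 in the cold mice. Both cold mice were above both warm mice at these genes. Ppargc1a had 5.59 and 15.1 against 16.9 and 15.5, a gap to mouse 2 that is small beside the spread between the warm mice. The same order held at Cox8b, a subunit of cytochrome oxidase, and at Ppargc1b, so that 5 of 16 thermogenesis genes were higher in both cold mice (31.2%) and none lower. After normalization Ppargc1b left this group and Slc25a20 entered it, again 5 of 16, with Letmd1 lower. Without mouse 4, mouse 5 was above both warm mice at 9 of the 16 genes (56.2%), near the share of all genes. In the HFD mice the Ucp1 fold was 11.2 and 15.6 in the warm mice and 11.7 and 19.6 in the cold mice, which overlap.

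Cidea, a lipid droplet protein of brown fat, had 16.6 and 17.0 in the warm and 24.5 and 12.9 in the cold mice, which overlap. Adrb3, the β3-adrenergic receptor, had 15.7 and 17.0 against 5.60 and 19.4, the lowest value being that of mouse 4. Elovl3, an elongase induced by cold, had a start peak only in mouse 2, at 7.49, among the NCD mice. Prdm16, a regulator of brown fat identity, had peaks of 10.7, 15.1 and 20.0 in mice 1, 2 and 5 and none in mouse 4. Adcy3, an adenylyl cyclase, likewise lacked a peak only in mouse 4. Lep, the leptin gene, had 5.26, 5.27 and 4.30 in mice 1, 2 and 4 and 16.3 in mouse 5. Fabp4, a fatty acid binding protein, had 14.3 and 24.6 in the warm and 48.9 and 18.6 in the cold mice, and Adipoq, the adiponectin gene, 6.48 and 16.3 against 11.2 and 15.3. Fasn, fatty acid synthase, had 14.8 and 32.0 against 4.69 and 19.9, and Plin5, a lipid droplet protein, 10.8 and 14.0 against 6.85 and 23.0. The long noncoding RNA Gm15551 had no peak in mouse 1, 12.0 in mouse 2, and 4.39 and 11.1 in the cold mice. Its neighbour Camk2d, a calcium-dependent kinase, had 10.3 and 15.5 against 2.96 and 21.6. The groups overlapped at each of these genes, as they did at Vegfa and Gk, and mouse 4 had the lowest value at Fasn, Plin5 and Camk2d.

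**Figure D4:**
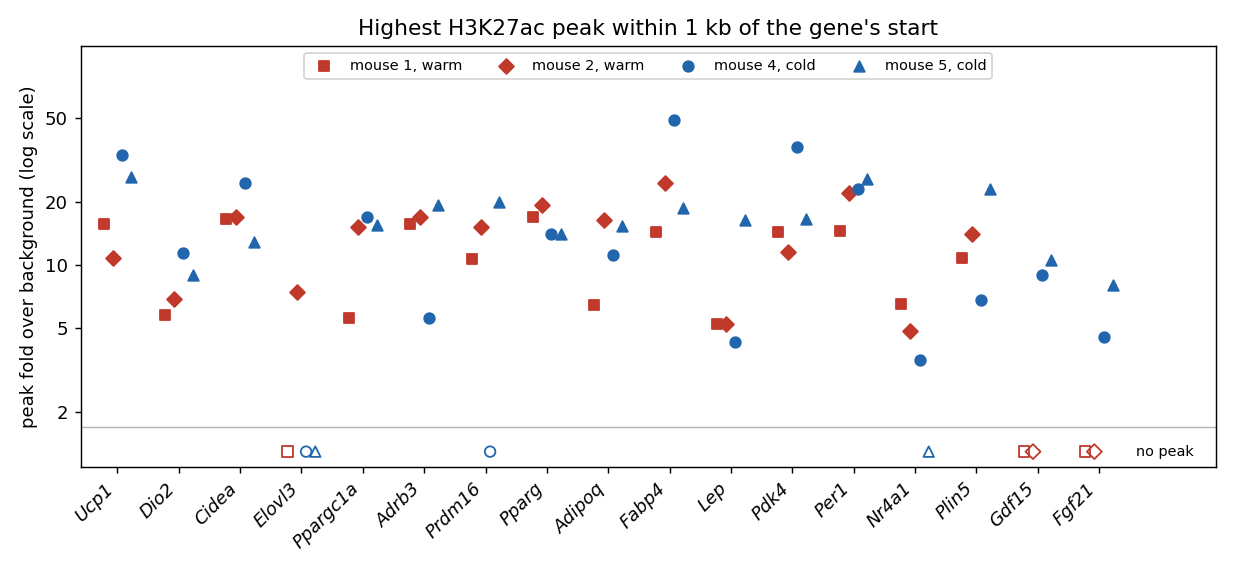
Highest H3K27ac peak within 1 kb of the start of 17 named genes in the warm (red) and cold (blue) NCD mice, as fold over background on a logarithmic axis; open symbols have no peak. Ucp1 was at 33.5 and 26.3 in the cold mice and 15.7 and 10.8 in the warm mice, and Gdf15 and Fgf21 had peaks in the cold mice only.

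Lipolysis genes were higher in both cold mice at 6 of 18 (33.3%, against 8.39% of all genes) and lower at 2 (11.1%, against 8.41%). Plin1, which coats lipid droplets and gates lipolysis, had 11.9 and 21.4 in the warm and 36.6 and 27 in the cold mice. Gpihbp1, which anchors lipoprotein lipase in capillaries, had 6.55 and 6.84 against 19.8 and 11.1. Lpl, lipoprotein lipase itself, went the other way, with 18.9 and 20.0 against 8.49 and 13.2. After normalization 4 of 18 were above (22.2%) and 3 below (16.7%), near the 17.6% of all genes in each direction. G0s2, Plin1, Plin4 and Gpihbp1 were above and Mgll, Fitm2 and Lpl below. Without mouse 4, mouse 5 was above both warm mice at 12 of 18 (66.7%, against 51.6% of all genes). It was below both at 4 (22.2%, against 10.1%). Fatty acid oxidation genes were above at 5 of 19, among them Pdk4, a kinase that restrains glucose oxidation, at 14.4 and 11.6 against 36.4 and 16.5. Etfa was below. After normalization 1 of the 19, Ehhadh, was above (5.26%) and 3 were below (15.8%), against 17.6% of all genes in each direction.

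Vascular genes were above at 3 of 11 and, after normalization, at 7 of 11 (63.6%, against 17.6% of all genes), with none below in either. Without mouse 4, mouse 5 was above both warm mice at 7 of 11 (63.6%, against 51.6% of all genes) and below both at 1. Robo4, an endothelial receptor, had 4.24 in both warm mice and 17.1 and 6.32 in the cold mice. Pecam1, an endothelial adhesion protein, had 5.64 and 6.62 against 12.6 and 9.95. Both belong to the endothelial marker list given above, as does Kdr. Among clock genes, Per1 and Per2 were above and Nr1d2 was below on both scales. Per2 had 10.6 and 10.3 in the warm and 17.4 and 19.1 in the cold mice. De novo lipogenesis genes were above at 1 of 15, Mlxipl, and below at Elovl6 and Srebf1, and heat shock genes were above at 2 of 13 and below at Hspa1a and Hspa1b, neighbouring paralogs whose reads are hard to tell apart. After normalization de novo lipogenesis genes had 2 above and 3 below, and heat shock genes 1 and 2. Elovl6 and Hspa1a then no longer had this order. Of 17 adrenergic genes 0 were above and 1 was below, and after normalization 2 and 3. Of 18 glycolysis genes 0 were above and 2 below, and after normalization 5 and 3. Immediate early genes had 1 of 15 above and 2 below, stress genes 0 of 11 and 2, adipocyte identity genes 1 of 14 and 1, and nuclear receptor genes 1 of 9 and 0. Start peaks in both cold mice and neither warm mouse, as at Gdf15 and Fgf21, were found at 150 of 21924 genes (0.684%), and the reverse at 31. Over all genes the median difference of log2 fold, cold minus warm, was -0.27 on the deposited scale.

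Peak height at the regions in all 4 lists was tested with limma on quantile-normalized log2 folds. Of 10514 regions, 0 were higher and 0 lower in the cold at a Benjamini-Hochberg adjusted p of 0.05 (0.0% in each direction), and the lowest adjusted p was 0.67. At an unadjusted p under 0.05, 329 were higher (3.13%) and 390 lower (3.71%). Without mouse 4 these counts were 175 and 420, and without mouse 5 they were 1277 and 1663, still with 0 regions past the adjusted threshold. Among regions higher in the cold, the one of lowest p lay 6.59 kb from the start of Cfap99, with folds of 4.84 and 5.68 in the warm and 18.7 and 24.5 in the cold mice and a log2 difference of 2.02 ± 0.43 (SE). It was followed among these by regions nearest to AC091309.6, Gm15582, Gm32200 and Gm47948, with log2 differences of 1.64, 1.68, 1.57 and 1.46. These 5 lay 5.58 to 44.9 kb from a start.

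The 5 regions of lowest p that were lower in the cold lay within 0.446 kb of a start, at D830050J10Rik, Cnbp, Bcl2l13, Ankrd17 and Ttpal, with log2 differences from -1.88 to -1.75. Cnbp, a nucleic acid binding protein, had folds of 14.2 and 15.7 in the warm and 2.17 and 7.15 in the cold mice. At 4 of these 5 the lowest fold was that of mouse 4, and at Bcl2l13 the cold mice were at 8.79 and 8.30. The region over the Ucp1 start and its upstream flank differed by 0.68 ± 0.44 (SE) on the log2 scale, with an adjusted p of 0.764 in limma. It stayed positive, from 0.38 to 0.99, in 9 alternative fits. That at Dio2 differed by 0.57 ± 0.45 (0.11 to 1.04) and that at the Pparg start by -0.82 ± 0.43 (-1.06 to -0.08).

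The HFD mice, which had no part in defining the classes, were used to read the same regions under the same temperatures. Cold-only regions had a peak in 0.3% of cases in mouse 7 and 45.5% in mouse 8, both warm, and in 22.9% in mouse 10 and 82.0% in mouse 11, both cold. For warm-only regions the shares were 4.48%, 55.2%, 4.48% and 65.7%, and for all regions 5.75%, 59.6%, 26.9% and 73.7%. Cold-only regions were above the share of all regions in mouse 11 and below it in mice 7, 8 and 10. The difference, cold-only minus warm-only, was thus -4.18 and -9.7 percentage points in the warm mice and 18.4 and 16.3 in the cold mice. The means differed by 24.3 points, and the two-sided exact permutation p was 0.33, the lowest that 2 against 2 mice allow. With equal lists the differences were 0.404 and -6.13 in the warm and 43.4 and 7.23 in the cold mice. With full lists the order held among regions beyond 1 kb of a start, of which only 20 were warm-only, with a difference of means of 34.6 points. It also held within 1 kb, where 47 were warm-only, with 20.2. With equal lists it did not hold within 1 kb, where cold mouse 11 was at 0.777 and warm mouse 7 at 0.8 points (exact permutation p = 0.667).

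This order did not hold without mouse 4, when cold-only needs only a peak of mouse 5. With classes made from mice 1, 2 and 5, the differences were -2.94 and -31.8 points in the warm and -6.87 and -12.0 in the cold HFD mice, which overlap (exact permutation p = 1.0). Without mouse 5 the warm and cold HFD mice overlapped too. The HFD lists held 3224 peaks (mouse 7) to 40604 (mouse 11), and with 3224 peaks each the differences were -4.18 and 0.712 in the warm and 1.20 and 2.55 in the cold mice. Of the 2669 cold-only regions, 165 had peaks in both cold HFD mice and neither warm one (6.18%), as had 1.73% of all regions. The reverse pattern, both warm HFD mice and neither cold one, was found at 0 cold-only regions and at 3 of all regions.

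**Figure D5:**
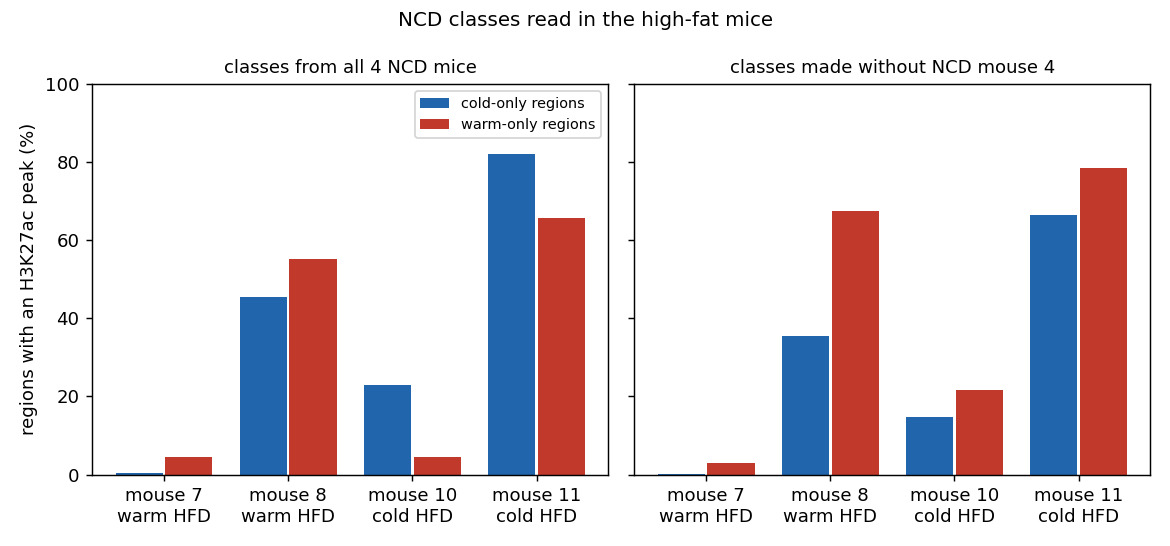
Percent of cold-only and warm-only regions with an H3K27ac peak in each HFD mouse, for classes from all 4 NCD mice (left) and without mouse 4 (right). The cold-only bar was higher in both cold HFD mice on the left, and lower in all 4 HFD mice on the right.

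Among regions in all 4 lists, height was read in HFD mice 8, 10 and 11, leaving out mouse 7 with its short list. Each mouse's log2 folds were first centred on their median. The mean of mice 10 and 11 was above mouse 8 at 203 of 282 regions (72.0%) that had been higher in the cold at an unadjusted p under 0.05, at 104 of 216 (48.1%) that had been lower, and at 53.4% of all 7042 regions with peaks in these mice. With 1 warm mouse this comparison has no replicate check.

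Other histone marks of the same NCD mice were read at these regions. H3K4me3 was listed at 12.7% and 13.8% of cold-only regions in the warm mice and at 15.8% and 16.3% in the cold mice. In the 4 mice it was listed at 79.1% to 80.6% of warm-only regions and at 39.6% to 41.2% of all regions. The difference, cold-only minus warm-only, was -67.9 and -66.8 points in the warm and -63.3 and -62.8 in the cold mice, a gap of 4.3 points with groups that did not overlap (exact permutation p = 0.33). The cold H3K4me3 lists were longer, with 22321 and 22692 peaks against 20304 and 21024. With 20304 peaks each, the cold-only shares overlapped, at 12.7% and 13.3% in the warm and 14.2% and 13.2% in the cold mice. The gap was then 4.4 points. Of the 67 warm-only regions, 54 and 53 were listed in the warm and 51 and 51 in the cold mice. H3K4me1 was listed at 0.749% and 21.3% of cold-only regions in the warm mice and 22.3% and 33.4% in the cold mice. These shares were near those of all regions, 1.14% and 26.4% in the warm and 20.7% and 31.8% in the cold mice for H3K4me1. Its differences were -0.743 and 9.38 points in the warm and 17.8 and 23.0 in the cold mice (exact permutation p = 0.33). The H3K4me1 list of mouse 1 held 592 peaks, against 15676 to 27568 in the others. Without mouse 1 the gap was 11.0 points, against 16.1 with it, and with 592 peaks from each list it was 1.9 points.

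Short sequence motifs were searched on both strands in 300 bases around 38358 summits. AP-1 (TGANTCA), bound by Fos and Jun, was found in 9.22% of cold-only windows and 7.7% of all windows, and in 9.54% and 9.21% beyond 1 kb of a start. ERRE (TCAAGGTCA), bound by estrogen-related receptors, was found in 1.84% and 1.32%, and beyond 1 kb in 1.97% and 1.57%. It contains most of NBRE (AAAGGTCA), bound by Nr4a receptors, which was found in 2.7% and 2.0%. The cAMP response element CRE (TGACGTCA) was found in 0.337% of cold-only and 0.425% of all windows. The E-box CAGCTG was in 19.3% of cold-only and 17.2% of all windows. SP1 (GGGCGGGG), a promoter motif, was in 1.09% of cold-only, 5.97% of warm-only, 5.86% of shared and 3.85% of all windows. For ETS (CCGGAAGT) and NRF1 (GCATGCGC), other promoter motifs, cold-only windows had 0.6% and 0.112% against 1.21% and 0.795% of all. Beyond 1 kb of a start the order for ETS turned, with 0.502% of cold-only and 0.392% of all windows. Shares of AP-1 beyond 1 kb were also 9.67% in regions of mouse 4 alone, 10.3% in those of mouse 5 alone and 9.56% in those of warm mouse 2 alone. No test was made, and a match is only a match of letters.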

How the data were processed

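Per the labels and the study's methods, the authors trimmed reads with cutadapt, mapped them with bowtie2 to GRCm38 and called peaks for each mouse with macs2 over its own input. Tool versions and the cut-off for peaks were not found in the paper or labels. The deposited lists give for each peak a fold (a ratio of ChIP to background coverage) and −log10 p and −log10 q values from the authors' caller. They hold no counts, so depth was not measured and is judged only through the background coverage, matched on −log10 p within 0.01. Lists carry 1 mouse number each, taken as the replicate, although the methods can be read as tissue of 2 mice per experiment. P-values then measure only the spread between these lists. The tissue is interscapular in the paper and inguinal in the series' text.

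Peaks overlapping by 1 bp or more were merged. Each region's summit, that of its highest-ranked peak, was set against GENCODE M21 basic starts on GRCm38, and 10 regions on unplaced contigs had none. Heights were tested with limma 3.58.1 in R 4.3.3 on quantile-normalized log2 folds of the 4 libraries, checked on simulated data, with Benjamini-Hochberg adjustment. Shares were compared by exact permutation over mice. Members, gene lists and named genes were chosen with earlier results of these data known. The rule for named genes took 12 leading regions per class, ranked by −log10 p among those kept with equal lists, 5 regions per direction of lowest limma p, the 5 genes with most regions per class, up to 4 members per gene list, and a list of thermogenic and adipocyte genes. Start heights, their counts and the genes named for them alone were added after seeing the data, as were classes without each mouse, the split by distance from a start in the HFD test, and the sequence of Gdf15.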

Additional observations from a re-analysis of the deposited data

How the results depend on the processing

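The counts of cold-only and warm-only regions depended on the peaks used. Equal lists gave 933 and 449, the top 10000 peaks 572 and 408, and the top 5000 peaks 311 and 279. At a −log10 q of at least 5, 33 regions were warm-only, while 1966 were cold-only, within 1.5 times the main count, as were both counts with an overlap of 100 bp (2632 and 68). Leaving out each mouse gave 2769 to 9739 cold-only and 129 to 3941 warm-only regions. The group left with 1 mouse then needs a peak in only that mouse. Without mouse 1 the warm-only count was above the cold-only count on this looser rule. Counts of height differences stayed at 0 in 9 alternative fits per direction, and the lowest adjusted p over them was 0.0828, without mouse 5. With no normalization 46 regions were higher and 86 lower at an unadjusted p under 0.05. The named heights kept their direction in all 114 alternative values. Most of these are for the 5 regions per direction picked for the lowest limma p in the same libraries, so their kept sign is no independent check. The HFD difference of 24.3 points kept its sign under 12 alternatives, from 3.61 with equal HFD lists to 34.6, and came to 7.96 without mouse 4. H3K4me3 and H3K4me1 kept theirs under 8 alternatives each, and H3K4me1 came to 1.9 points with equal lists of 592 peaks. The start peaks with both cold mice above or below both warm mice, 496 and 497, both came to 1043 under quantile normalization, and leaving out a mouse gave 531 to 3051 above and 544 to 4147 below, with the direction turning on the mouse left out (1626 above and 544 below without mouse 2, 689 and 4147 without mouse 5). These start-peak alternatives were chosen after seeing the data. The exact permutation tests of 2 against 2 mice could not pass a threshold of 0.05. No paired analysis was possible because the cold and warm mice share no mouse number. Presence in a list depends on depth, and a missing peak may be a weak one.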
